A study of Sus scrofa with 12 samples.

Results

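Transcripts assembled on unplaced scaffolds of the pig genome were taken from 12 longissimus dorsi (LD) muscle libraries. They are all transcripts whose sequence name is neither a chromosome nor the mitochondrial genome. The 12 libraries listed 6094 such transcripts, between 416 and 671 in each, among 30535 to 44609 transcripts of all kinds. Spliced transcripts with the same intron chain and overlapping single-exon transcripts were matched between libraries, which gave 2026 distinct scaffold transcripts of 143525 distinct transcripts in all.

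The study sequenced LD RNA of 12 castrated purebred Iberian males, 1 library per pig, to compare pigs at the high and the low extreme of breeding value for intramuscular fat (IMF). The 6 pigs of the H group had the highest estimated breeding values (EBVs) for IMF and the 6 of the L group had the lowest. Per the labels, IMF averaged 11.9% ± 1.25 for H pigs and 1.98% ± 0.262 for L pigs (SD, n = 6 each), while the text of the study gives another mean for the L group. All pigs were fattened outdoors on acorns and grass, and siblings were left out. Libraries are called H1 to H6 and L1 to L6 after the numbers in the labels, and their listed transcripts add up to 9.88 to 17.6 gigabases of coverage. The groups differ in breeding value and in IMF together, and the sources used here do not tie pigs to slaughter batches or sequencing lanes.

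A genome assembly keeps as unplaced scaffolds the sequences that could not be anchored to a chromosome. Such pieces are often rich in GC bases, in repeats or in recent duplications, and they can carry whole blocks of ordinary genes as well as extra copies of genes that the chromosomes hold. Genes on them are easily left out of analyses that go chromosome by chromosome.

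As a check of the tissue, 6 of 10 skeletal muscle markers were listed in all 12 libraries, with a summed level of 30797 to 49014 FPKM. ACTA1 and MB, which muscle expresses strongly, were listed at 0 in all 12 libraries, so a value of 0 in these files is a transcript that was not listed and is not proof of absence. H4 listed the most transcripts of all libraries and L3 the fewest, and counts of scaffold transcripts are given with and without them.

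Transcripts were found on 68 scaffolds. Of these, 37 with 1930 distinct transcripts (95.3%) could be matched to a RefSeq scaffold of the same assembly, Sscrofa11.1, through the bases at their introns. On the matched scaffolds 2210 of 2250 introns (98.2%) began and ended with standard splice site bases, against 98.3% of 171131 introns on the chromosomes. The matching itself required at least 80% of the introns of a scaffold to be standard, and 3 introns or more, so this share is partly set by that rule. The splice sites of 3 genes are shown because they tie the scaffold names in the files to readable sequence. Capitals mark the first and last bases of the intron, each line holds 15 exon and 15 intron bases, and every one of these introns was listed in all 12 libraries.
HSP90AA1 intron start, AEMK02000452.1:922377-922406, minus strand: cgtccttcagccaagGTgagggggcggttg
HSP90AA1 intron end, AEMK02000452.1:921963-921992, minus strand: cggtgtcccttccAGatgcccgaggaaacc
UBAC1 intron start, AEMK02000682.1:1657493-1657522, plus strand: cgctgcctcaagcacGTaagtccgccgcgg
UBAC1 intron end, AEMK02000682.1:1661559-1661588, plus strand: ctctgccttccccAGtgtgctcccgggagc
MTA1 intron start, AEMK02000452.1:3461134-3461163, plus strand: tgtacagggtcggagGTaaggccgccgccc
MTA1 intron end, AEMK02000452.1:3474360-3474389, plus strand: ttgtcccgtttgcAGactacgtctactttg

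The HSP90AA1 intron, of 414 bases, lies just upstream of the annotated gene, which RefSeq ends at base 921977 of the minus strand. The libraries thus listed a first exon, of up to 271 bases, that the annotation of this scaffold does not hold. The MTA1 intron is the first of the gene and spans 13226 bases.

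Inside that MTA1 intron lies the stretch that all 6 H libraries and no L library listed as part of a single-exon transcript. It is printed on the strand of MTA1, since the files give the transcript no strand.
MTA1 first intron, AEMK02000452.1:3468451-3468673, plus strand: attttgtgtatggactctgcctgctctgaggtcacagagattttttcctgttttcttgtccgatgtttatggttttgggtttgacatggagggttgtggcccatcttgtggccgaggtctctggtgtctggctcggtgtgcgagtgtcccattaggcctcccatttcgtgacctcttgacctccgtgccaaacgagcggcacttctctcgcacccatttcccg

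A pair of short single-exon transcripts was listed in all 12 libraries at places where RefSeq has no gene. Both were looked at after their recurrence was seen, and both are printed over the bases that every library shares. The files give transcript 548 no strand, and the plus strand of the scaffold is shown.
Transcript 264, AEMK02000264.1:114320-114603, minus strand: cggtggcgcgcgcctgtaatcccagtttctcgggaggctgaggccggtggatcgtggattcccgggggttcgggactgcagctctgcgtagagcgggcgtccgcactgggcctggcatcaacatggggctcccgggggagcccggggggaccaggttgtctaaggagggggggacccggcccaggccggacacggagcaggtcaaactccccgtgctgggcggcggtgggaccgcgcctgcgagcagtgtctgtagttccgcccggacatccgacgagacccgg
Transcript 548, AEMK02000548.1:35285-35477, plus strand: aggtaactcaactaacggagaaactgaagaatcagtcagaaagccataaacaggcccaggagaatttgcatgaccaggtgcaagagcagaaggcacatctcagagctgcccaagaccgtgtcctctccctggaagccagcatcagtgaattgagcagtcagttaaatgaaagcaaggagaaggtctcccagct

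Transcript 264 aligned over 264 of its 284 bases with LOC102723301, the annotated 7SL RNA gene on chromosome 1 (179457000-179457276), and 218 of the aligned bases (82.6%) were identical. That alignment was made with this gene alone, so the likeness was not set against other sequences. The 7SL RNA is the RNA of the signal recognition particle. Of transcript 548, 143 of 193 bases aligned with an exon of EEA1 on chromosome 5 (90223955-90224097), with 131 identical (91.6%). EEA1 encodes an early endosome protein. Transcript 264 had a median of 8.68 FPKM over the 12 libraries and transcript 548 a median of 19.5 FPKM, and neither passed the test between groups (adjusted p = 0.49 and 0.87 by limma).

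The last pair shows a scaffold transcript beside its near copy on a chromosome. LOC100518848, annotated as a 40S ribosomal protein S21 gene, is 1 uninterrupted stretch on the scaffold, while the copy on chromosome 17 is RPS21 itself, whose exons are split there by 5 introns of 83 to 353 bases. Capitals mark the bases that differ, counted from 1 at the 5′ end of the scaffold sequence as C268T and T291C, scaffold base first.
Scaffold copy, AEMK02000452.1:1167921-1168220, minus strand: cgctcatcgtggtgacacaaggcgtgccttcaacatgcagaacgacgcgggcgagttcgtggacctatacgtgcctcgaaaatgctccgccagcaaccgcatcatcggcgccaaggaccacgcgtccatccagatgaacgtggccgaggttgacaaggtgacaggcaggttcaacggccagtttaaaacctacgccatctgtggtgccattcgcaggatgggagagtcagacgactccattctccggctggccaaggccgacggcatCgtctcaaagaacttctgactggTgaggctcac
RPS21 exons joined, within chr17:61763613-61764782, plus strand: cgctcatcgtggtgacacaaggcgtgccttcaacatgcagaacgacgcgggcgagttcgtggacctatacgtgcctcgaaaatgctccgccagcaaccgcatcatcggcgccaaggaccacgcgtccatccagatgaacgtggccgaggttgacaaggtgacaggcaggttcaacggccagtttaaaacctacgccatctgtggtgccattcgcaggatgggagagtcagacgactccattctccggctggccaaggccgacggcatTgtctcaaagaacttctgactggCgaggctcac

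Over the whole alignment of 338 bases these were the only differences, so reads of the gene and of its copy can hardly be told apart. LOC100518848 was listed in 11 of 12 libraries with a median of 9.25 FPKM, and that value is uncertain for this reason.

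Near copies of any structure, spliced transcripts included, were more frequent on scaffolds than on chromosomes. Of 1930 distinct scaffold transcripts 89 (4.61%, 95% Wilson interval 3.76 to 5.64%) had a copy of at least 95% identity over at least 80% of their length on a chromosome, against 16 of 2830 chromosomal transcripts taken as every 50th (0.565%), a comparison without a test. The interval treats transcripts as independent, which those of 1 gene are not. The copies were unevenly spread. On AEMK02000153.1, AEMK02000529.1, AEMK02000641.1 and AEMK02000203.1 all matched transcripts, 9, 7, 7 and 6 of them, had a copy, whereas on AEMK02000452.1 it was 2 of 571. On AEMK02000569.1, 10 of 82 had one. All 10 lay at CSF2RA, a colony stimulating factor receptor gene, and had their copy on chromosome Y.

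A few scaffolds held most of the transcripts. AEMK02000682.1 had 614 distinct transcripts and AEMK02000452.1 had 571, together 58.5% of all. AEMK02000328.1 had 133, AEMK02000569.1 had 82 and AEMK02000258.1 had 79. At the other end, 10 scaffolds were seen in 1 library alone, and 27 were seen in all 12.

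Recurrence was much like that of chromosomal transcripts. Of the distinct scaffold transcripts 1177 (58.1%) were listed in 1 library, 292 (14.4%) in at least 6 and 77 (3.801%) in all 12. The chromosomes had 59.9%, 14.4% and 3.61%. Single-exon scaffold transcripts were listed in all 12 libraries in 5.15% of cases (30 of 582), against 3.57% on the chromosomes. These shares are descriptions without a test.

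**Figure D1:**
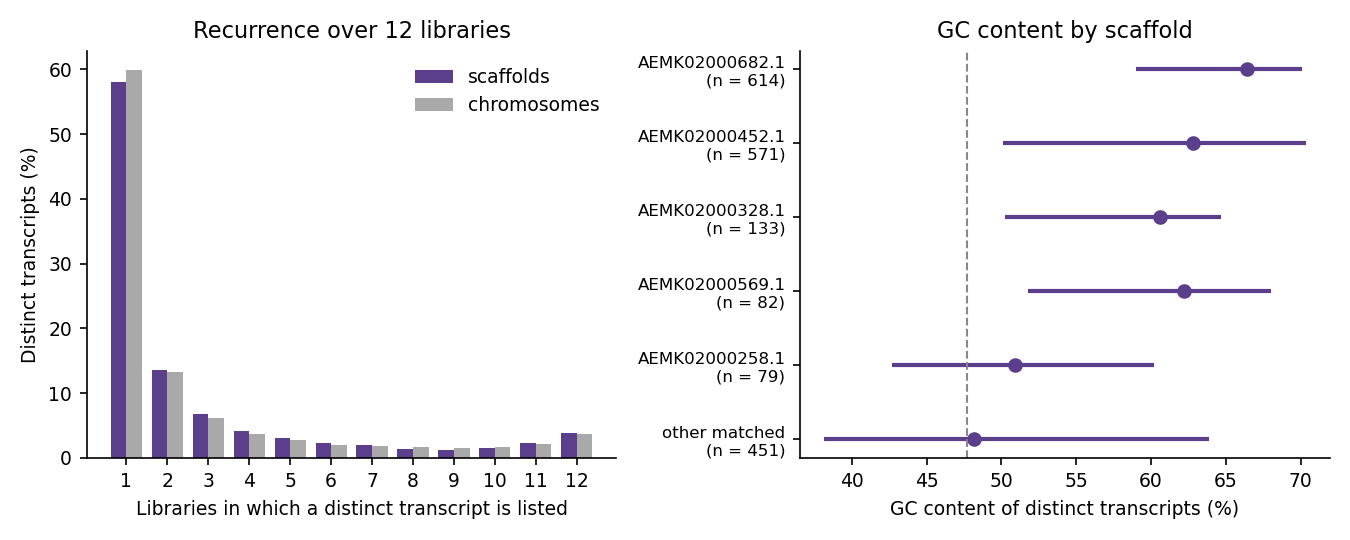
Left, percent of distinct transcripts (y axis) by the number of libraries that list them (x axis), for scaffolds and chromosomes; 58.1% and 59.9% are seen in 1 library. Right, GC content in percent (x axis) of distinct transcripts on the 5 scaffolds with most transcripts and on the other matched ones, as median (point) and 10th to 90th percentile (line); the dashed line is the mean of the library medians on chromosomes, 47.7%, and 4 scaffolds have their median above 60%.

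In relation to RefSeq genes, 1137 of the 1930 distinct transcripts on matched scaffolds (58.9%) shared at least 1 splice junction with an annotated transcript without having its whole intron chain. A complete intron chain was present in 196 (10.2%), 215 (11.14%) lay inside an intron and 149 (7.72%) lay between genes. Another 205 overlapped exons without a shared junction and 28 lay on the opposite strand of exons. On the chromosomes the complete chains made up 12.1% and the intronic transcripts 11.8%. Of the 77 transcripts listed in all 12 libraries, 37 had a complete annotated chain.

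Transcripts on the matched scaffolds were richer in GC than chromosomal ones in every library. GC content could not be read on the 31 scaffolds without a match, whose transcripts are left out of this comparison. The median GC content averaged 60.4% ± 0.709 (SD, n = 12) on scaffolds and 47.7% ± 0.544 on chromosomes, a difference of 12.7 percentage points that was present in 12 of 12 libraries (exact sign-change permutation test, two-sided, adjusted p = 0.00065, where the smallest unadjusted p it allows is 0.00049). The 2 scaffolds with most transcripts carried most of it. Their distinct transcripts had medians of 66.4% and 62.8%, and without them the difference was 3.42 points, still in 12 of 12 libraries.

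Scaffold transcripts were also shorter, with a mean of library medians of 1517 bases against 1689, and had a higher read depth, 8.71 against 6.46 reads per base. Both differences had the same direction in 12 of 12 libraries (exact permutation test, adjusted p = 0.00065 each). Without the 2 scaffolds with most transcripts the difference in length was -284 in place of -172 bases, in 12 of 12 libraries, and that in depth 1.05 in place of 2.25 reads per base, in 11 of 12 (exact permutation test, adjusted p = 0.00065 and 0.0068). The share of single-exon transcripts was 41.8% ± 4.17 on scaffolds and 41.0% ± 3.58 on chromosomes and did not pass (adjusted p = 0.14, higher in 8 of 12 libraries). It was higher by 7.94 points without those 2 scaffolds (adjusted p = 0.00065).

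The H libraries listed more scaffold transcripts than the L libraries. H1 to H6 had 538, 461, 541, 671, 481 and 614, and L1 to L6 had 454, 489, 416, 499, 479 and 451. The groups overlapped, with H2 and H5 inside the range of the L group. The means were 551 ± 79.5 and 465 ± 30.5 (SD, n = 6 each), with a two-sided p of 0.026 by an exact permutation test and of 0.078 once adjusted over 6 values. This passed the threshold of 0.1.

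The difference lay mostly in single-exon transcripts. Their number was 246 ± 49.9 in H and 183 ± 28.9 in L libraries (exact permutation test, adjusted p = 0.078). Spliced transcripts numbered 305 ± 30.2 and 282 ± 8.71 (adjusted p = 0.23, exact permutation test), which did not pass. Neither call was stable. Both were lost without H4 and L3 (adjusted p = 0.29 by the same exact test). They were also lost without any 1 of H1, H3, H4, H6, L1, L2, L3, L5 or L6 (0.11 to 0.19). Pairing H and L libraries of the same number gave 0.28 by an exact sign-change test. The numbers do not pair pigs, so that value says nothing on stability.

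The libraries as a whole also listed more transcripts in the H group, 38808 ± 3189 against 34471 ± 2002 (n = 6 each), so the scaffold share of transcripts was close, 1.42% ± 0.117 and 1.35% ± 0.0453 (exact permutation test, adjusted p = 0.28). The number of scaffolds with a transcript was 45.5 ± 6.32 and 41.8 ± 3.37 (adjusted p = 0.28, exact permutation test). That difference, of 3.67, was 1.77 without H4 and 0.6 without H4 and L3 (adjusted p = 0.54 and 0.89, exact permutation test). Transcripts inside introns numbered 64 to 114 in the H libraries and 37 to 70 in the L libraries. They are given here without a test and without the counts on chromosomes.

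Scaffolds took 0.447 to 1.27% of the coverage of a library, and 1 transcript took a large part of it. It is a single-exon transcript of AEMK02000141.1, most often 255 bases long, listed in all 12 libraries at a median coverage of 60409 reads per base. It accounted for 0.0395 to 0.859% of the coverage of a library, with the highest value in H2. In FPKM as deposited it reached 65393 in H2, 4328 to 24624 in the other H libraries and 2174 to 10725 in the L libraries. Its listed length ran from 255 to 787 bases, and FPKM are per length. H3, with 787 bases, had 4328 FPKM at 0.172% of coverage, and H4, with 255 bases, 12277 FPKM at 0.164%. The groups overlapped, and the limma test did not pass (adjusted p = 0.57). AEMK02000141.1 had no intron and could not be matched, so neither its sequence nor a gene can be given here. After it came the main transcripts of HSP90AA1, with a mean of 0.0881% of a library, ADSSL1 (0.0218%), UBAC1 (0.0144%) and BTBD6 (0.0131%).

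The scaffold share of coverage was 0.747% ± 0.274 in H and 0.589% ± 0.128 in L libraries (exact permutation test, adjusted p = 0.28). The difference, of 0.158 points, was 0.0540 without H2 and 0.32 with transcripts of at least 200 bases only, and passed in neither case. Without that transcript the order turned, to 0.428% ± 0.0545 and 0.477% ± 0.1002, again without passing (adjusted p = 0.35, exact permutation test).

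**Figure D2:**
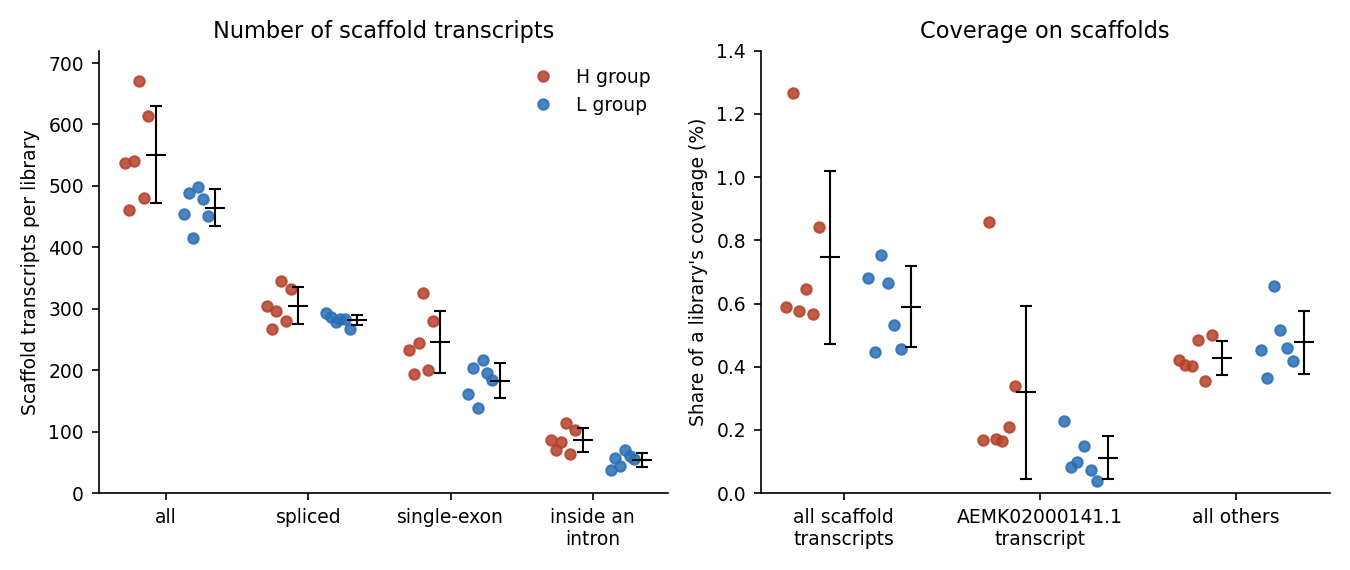
Left, scaffold transcripts per library (y axis) in all, spliced, single-exon and inside an intron; right, share of a library's coverage in percent (y axis) on all scaffolds, in the single transcript of AEMK02000141.1 and in all others. Points are the 6 libraries of the H and of the L group and bars are mean ± SD; H2 lies alone at 1.27%, and the remaining coverage ranges from 0.355 to 0.654%.

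The matched scaffolds carry 443 RefSeq genes, of which 204 had a transcript and 138 had one in all 12 libraries. Protein-coding genes made up 255 of the 443 and 172 of the 204. Of 80 long non-coding RNA genes 18 had a transcript, and none of 47 tRNA genes or 5 miRNA genes had one. A median of at least 10 FPKM was reached by 48 genes and of at least 100 FPKM by 4. Levels below are FPKM, which are per length of transcript, scaled between libraries by median ratios. In whole muscle, fewer cells of a type and less RNA per cell cannot be told apart.

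HSP90AA1, the stress-inducible cytosolic chaperone HSP90 alpha, had the highest median, 306 FPKM. It was at 297, 308, 270, 226, 419 and 405 FPKM from H1 to H6, and from L1 to L6 at 99.95, 287, 1346, 315, 305 and 449 FPKM. L3 was by far the highest library and L1 the lowest, so that the L group spanned the whole H group.

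ADSSL1, the muscle form of adenylosuccinate synthase in the purine nucleotide cycle, followed with 112 to 290 FPKM and a median of 178 FPKM. CUNH14orf2, the pig C14orf2 homolog, which encodes a small proteolipid of the mitochondrial ATP synthase, had a median of 145 FPKM. UBAC1, a subunit of a ubiquitin ligase, had a median of 112 FPKM, and BTBD6, an adaptor of cullin ligases, of 75.9 FPKM. In these 4 genes the H and L libraries overlapped.

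The dual specificity phosphatase DUSP26 had a median of 89.5 FPKM, the beta tubulin TUBB4B of 80.7 FPKM, the translation initiation factor EIF5 of 72.0 FPKM and the transcriptional coactivator EDF1 of 55.3 FPKM. EIF5 was highest in L3, at 193 FPKM, and next in H6, at 120 FPKM, against 58.9 to 93.2 FPKM in the other 10 libraries. None of the 10 genes of highest median passed the test between groups, and the smallest adjusted p among them was 0.65, for DUSP26.

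**Figure D3:**
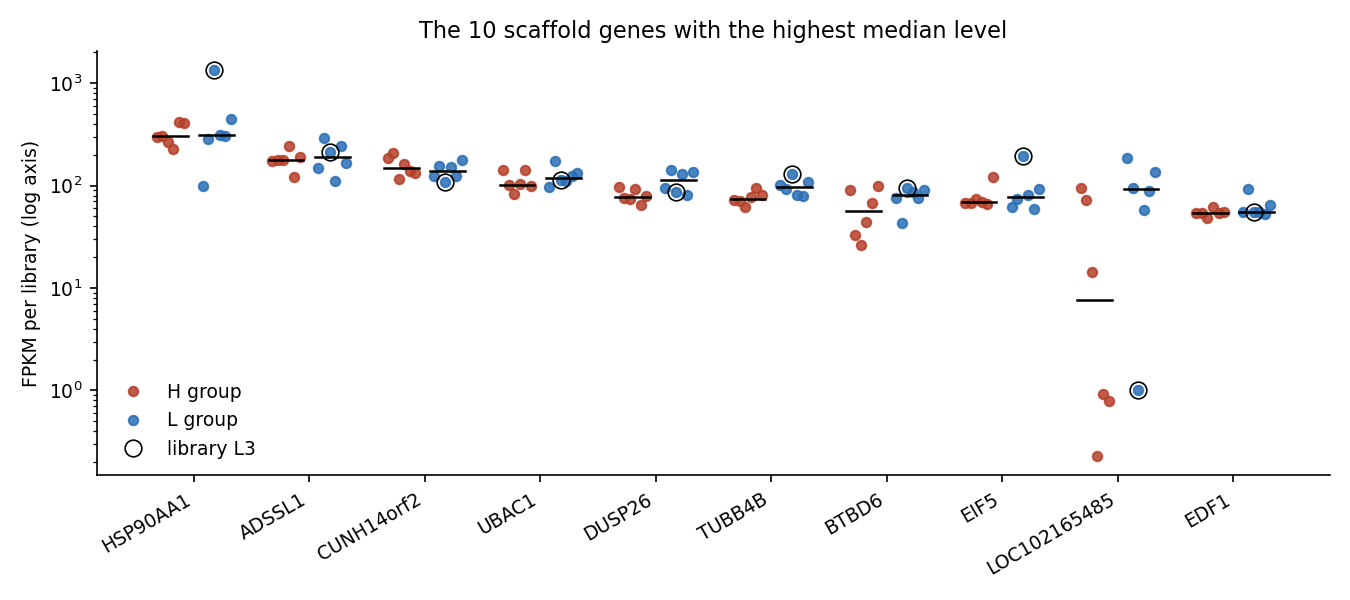
FPKM per library on a log axis (y) of the 10 scaffold genes with the highest median (x), with the H and the L group side by side; points are libraries, black lines are group medians and open circles mark L3. L3 is the highest library for HSP90AA1 (1346 FPKM) and EIF5 (193 FPKM), and LOC102165485 ranges from 0.228 to 184 FPKM.

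The last of these genes to be described, LOC102165485, is an immunoglobulin constant region gene and the most variable of them. It belongs to the immunoglobulin heavy chain locus at the end of AEMK02000452.1, which encodes the heavy chains of the antibodies that plasma cells release. The level moved between neighbouring genes of the locus from library to library. In H1, H3, H4, H6 and L3 the gene with the highest level was LOC396781, annotated as IgG heavy chain, in H5, L2 and L6 it was LOC110255225, and in H2, L1, L4 and L5 it was LOC102165485. These genes are close relatives, and reads that fit several of them can be shared out differently in each assembly, so single values are uncertain.

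The sum over the annotated genes of the locus also depends on the assembly. It leaves out transcripts of the locus that were classed as inside an intron. Such a spliced transcript was at 103, 72.4 and 91.2 FPKM in H4, H5 and H6 and at 73.1 FPKM in L3. Another was at 56.1, 39.3 and 70.1 FPKM in H4, H5 and H6 and at 36.3 FPKM in L3. The other libraries listed neither. Leaving both out thus lowers the sum in 3 H libraries and 1 L library. The sum over the annotated genes was 290, 78.9, 255, 71.9, 487 and 44.6 FPKM in H1 to H6 and 238, 623, 58.4, 100.003, 98.8 and 404 FPKM in L1 to L6. The groups overlapped throughout, with means of 205 ± 172 and 254 ± 221 (SD, n = 6 each), given without a test. The 6 lymphocyte markers, which include the plasma cell gene JCHAIN, summed to 0.917 to 3.40 FPKM in H and 1.17 to 2.53 FPKM in L libraries, with MS4A1, a B cell marker, at 0 in all libraries and 2 markers listed in all 12. Their part in the sum was not tested.

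**Figure D4:**
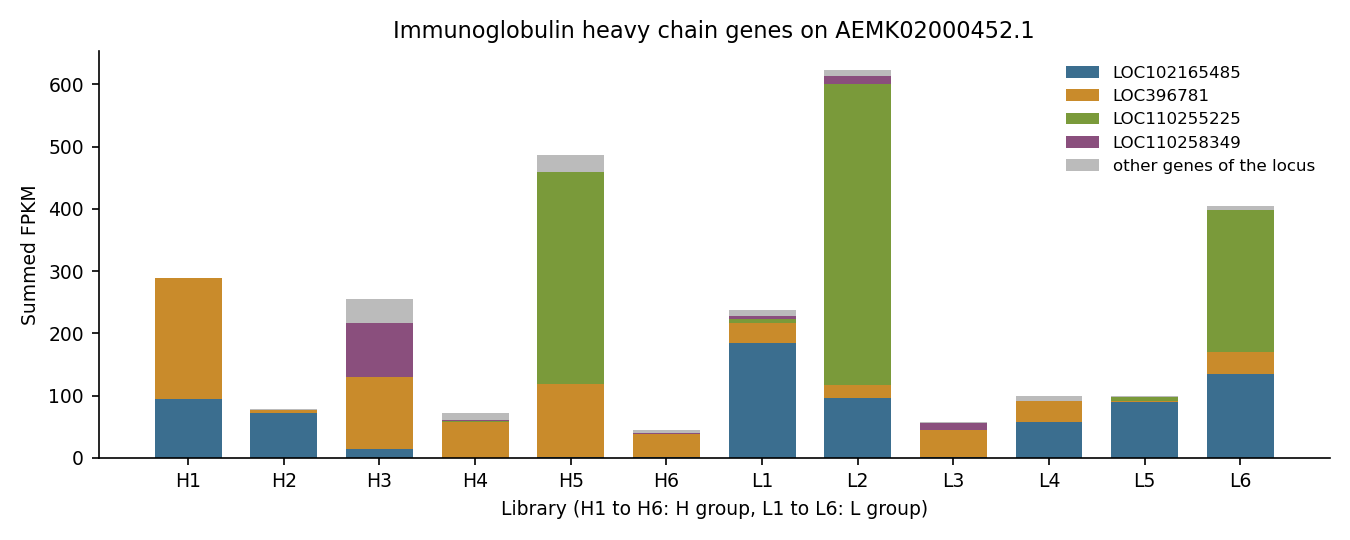
Summed FPKM (y axis) of the immunoglobulin heavy chain genes of AEMK02000452.1 in each of the 12 libraries (x axis), stacked by gene. The sum ranges from 44.6 in H6 to 623 in L2, and the gene with the highest level changes between libraries. Transcripts of the locus classed as inside an intron, listed in H4, H5, H6 and L3 among others, are not in the sum.

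Of the gene lists, the lipid list had 3 members, all with a transcript. AGPAT2, which makes phosphatidic acid on the way to triglycerides, was at 10.97 to 20.2 FPKM in H and 12.9 to 19.1 FPKM in L libraries. PNPLA7, a lysophospholipase, was at 0 to 7.64 FPKM and 3.50 to 11.7 FPKM, and ABCA2, a lipid transporter, at 2.64 to 4.33 FPKM and 1.83 to 4.06 FPKM. All 3 overlapped between groups, 0 of 3 passed the limma test and 0 had an unadjusted p under 0.05, and their median log2FC was 0.01. The 6 adipocyte markers summed to 54.7 to 151 FPKM in H and 32.7 to 85.03 FPKM in L libraries. Their part was not tested.

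The mitochondrial ribosomal list had MRPS2, with a median of 14.2 FPKM, and MRPL41, described below. The ubiquitin and proteasome list had FBXW5, a substrate receptor of a ubiquitin ligase, and TRIM27, with medians of 14.8 and 5.34 FPKM. The zinc finger list had 1 of 2 members with a transcript, ZNF839, with a median of 7.36 FPKM. By limma 0 of these members passed, and MRPL41 alone of them had an unadjusted p under 0.05. None of 8 olfactory receptor genes and not the 1 contractile gene had a transcript. The respiration, histone, swine MHC and killer receptor lists had no member on the matched scaffolds. The respiration list was made by gene symbol, so CUNH14orf2, described above, was not counted in it.

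Between groups, 170 scaffold genes were tested among 12578 genes. By limma 0 of them had an adjusted p under 0.1, where 0.00795% of all genes did. At an unadjusted p under 0.05 there were 18, against 7.31% of all genes. Of these 12 were higher in the H group, against 3.94% of all genes. The log2FC (H minus L) was above 0 in 93 of the 170, against 50.5% of all genes. The median log2FC was 0.04 over the scaffold genes and 0.00 over all genes tested.

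The smallest p was that of MRPL41, a protein of the large mitochondrial ribosomal subunit. It was at 7.81, 11.4, 8.35, 6.70, 10.6 and 5.42 FPKM from H1 to H6, and from L1 to L6 at 8.52, 31.0, 18.7, 11.2, 24.2 and 29.1 FPKM. The L libraries were higher except for L1 and L4, which lay within the H range (log2FC = -1.14, SE = 0.31, limma adjusted p = 0.57). MRPL41 starts within a few bases of PNPLA7, on the opposite strand, and its transcript, a single exon, overlaps that gene. The sources used here do not say whether the libraries kept strand, so reads of the 2 genes may not be told apart.

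APOPT1, a cytochrome c oxidase assembly factor, was at 23.6 to 33.1 FPKM in H and 16.5 to 25.1 FPKM in L libraries, with only L2 reaching the H range (log2FC = 0.48, SE = 0.13, limma adjusted p = 0.57). TNRC6A, a scaffold protein of RNA silencing, was at 4.93 to 8.99 FPKM and 3.90 to 5.05 FPKM (0.52, SE = 0.15, limma adjusted p = 0.57). The receptor NOTCH1 was at 1.79 to 6.30 FPKM and 1.31 to 2.51 FPKM, with H6 far above the others (0.67, SE = 0.23, limma adjusted p = 0.62).

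Of the remaining genes with the 8 smallest p, TMEM121 (log2FC = 0.91, and 1.78 or 0.59 with a pseudocount of 0.1 or 1 in place of 0.5), SNAPC4, which takes part in snRNA transcription (0.44), and the LIM domain protein CRIP2 (0.26) had higher means in H and DUSP26 (-0.44) in L libraries. Their limma adjusted p lay between 0.62 and 0.65, and in no scaffold gene tested were the groups free of overlap. Over all genes tested 0.31% had every H library above every L library and 0.246% the reverse.

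At the level of distinct transcripts, 292 on scaffolds were tested among 20653. By limma 1 of them passed an adjusted p under 0.1, where 0.203% of all transcripts did. Only transcripts listed in at least 6 libraries were tested, and this one met that through the H libraries alone, so its call is tied to the choice of what was tested. At an unadjusted p under 0.05 there were 31, against 7.33% of all. Of these 21 were higher in the H group, against 4.68% of all, and the log2FC was above 0 in 155 of the 292, against 53.1% of all. In 3 of the 292 every H library lay above every L library, against 0.291% of all, and in 0 every H library lay below, against 0.174%. The 3 are the called transcript, the complete APOPT1 chain and a transcript of AKAP17A, a splicing-related anchor protein. The called transcript entered through the H libraries alone, so its lack of overlap was set by that choice.

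The called transcript lies in the first intron of MTA1 (AEMK02000452.1, bases 3466832 to 3469127). MTA1 encodes a subunit of a chromatin remodelling and histone deacetylase complex. The transcript is the one whose shared stretch was printed above, and in some libraries it was listed as up to 3 fragments, whose FPKM were added up, so its value is a sum and not the level of 1 molecule. It was at 2.70, 7.30, 5.57, 8.99, 5.55 and 6.07 FPKM from H1 to H6 but was listed at 0 in each of L1 to L6. All H libraries listed it and no L library did. Since it entered the test through its H values alone, no p from that set is given for it. A listing in at least 1 library, which holds for all 143525 distinct transcripts, was also met by it through the H values alone. In that set the limma adjusted p was 0.0016. The L values were still unlisted zeros, so this p is no separate support for the call. Of the 2026 distinct scaffold transcripts 1 (0.0494%) was listed in all 6 H libraries and in no L library, and 0 showed the reverse. On the chromosomes it was 17 of 141499 (0.0120%), and 4 (0.00283%) the other way round.

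MTA1 itself did not follow this. The gene was at 24.6, 27.4, 24.3, 34.2, 23.4 and 28.2 FPKM from H1 to H6, and from L1 to L6 at 26.1, 31.9, 23.5, 29.3, 25.5 and 25.5 FPKM, with means of 27.0 ± 3.98 and 27.0 ± 3.05 (SD, n = 6 each; limma adjusted p = 1.0). The groups overlapped over nearly their whole range.

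Transcripts inside MTA1 introns, the called one included, were listed by group in the same way. H1 to H6 had 7, 6, 5, 10, 10 and 12 of them and L1 to L6 had 0, 1, 0, 3, 1 and 0, so all H libraries lay above all L libraries. These were looked at because of the called transcript, and are not independent of it. The next in the intron (bases 3470161 to 3472629) was at 2.57 to 9.79 FPKM in H libraries, whereas of the L libraries L4 alone listed it, at 5.73 FPKM (limma adjusted p = 0.16). Its H libraries alone were enough for it to enter the test, so this p too is tied to the listing.

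By default, Cufflinks leaves out intronic fragments of low depth relative to the spliced transcripts around them. Where MTA1 had intronic transcripts, the shallowest of a library had 8.07 to 13.7% of the summed depth of spliced MTA1 transcripts, in both groups. The L values of 0 thus do not say that the intron was free of reads. Over all scaffold genes with intronic transcripts, 85 genes or gene groups, the H libraries had 519 and the L libraries 324. More were in the H libraries for 64 of the 85, more in the L libraries for 17 and as many in both for 4. The same counts are not given here for the chromosomes. The H libraries listed more transcripts of all kinds, so these counts cannot be read as particular to scaffolds. The part of this in the MTA1 result was not tested. The gene with most, LOC100516814, had 48 in the H and 29 in the L libraries. As examples chosen after their values were seen, ARHGAP17, a GTPase-activating protein, had 23 and 4, whereas PNPLA7 had 6 and 21.

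**Figure D5:**
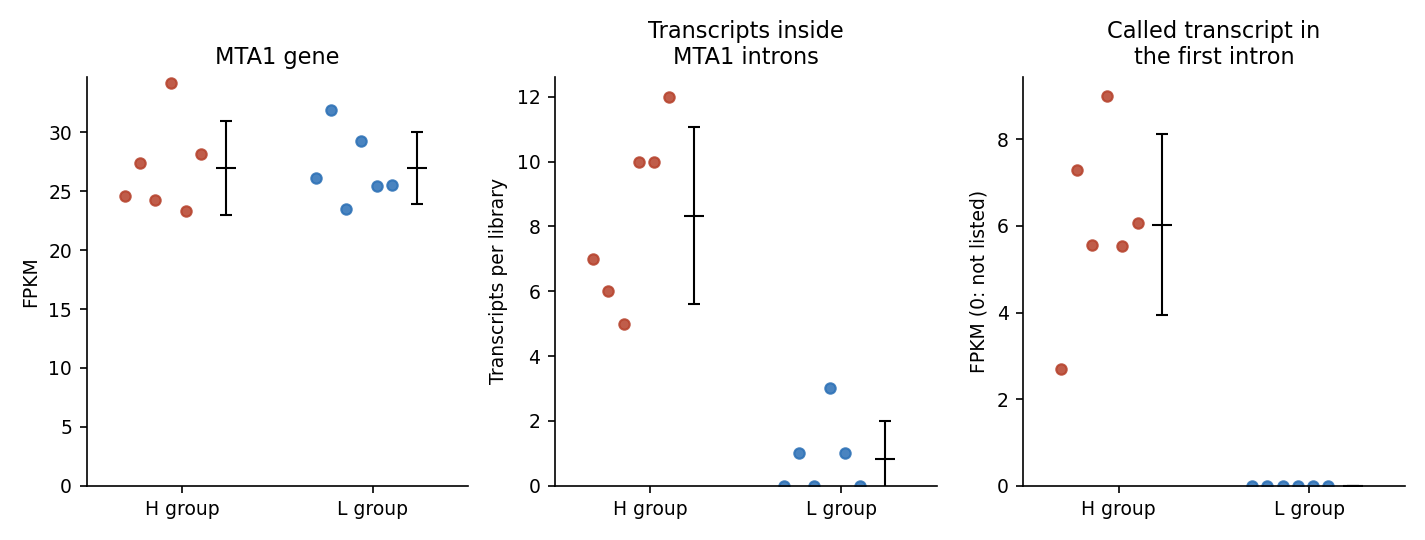
MTA1 gene level in FPKM (left), number of transcripts inside MTA1 introns per library (middle) and FPKM of the called first-intron transcript, where 0 means not listed (right), in the H and the L group. Points are libraries and bars are mean ± SD; the gene level overlaps, while the H libraries have 5 to 12 intronic transcripts and the L libraries 0 to 3.

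The next transcripts by p were complete annotated chains. That of APOPT1 was at 23.5 to 32.3 FPKM in H and 15.6 to 22.2 FPKM in L libraries, without overlap (log2FC = 0.56, SE = 0.16, limma adjusted p = 0.39). The complete EIF5 chain was listed in H2 and H5 alone of the H group, at 65.8 and 65.5 FPKM, and in all 6 L libraries at 45.2 to 96.3 FPKM (log2FC = -4.70, SE = 1.36, limma adjusted p = 0.42). Its 6 L libraries alone were enough for it to enter the test. The H libraries that did not list it counted as 0, so its log2FC and p are tied to the listing. In the 4 other H libraries EIF5 was listed as other chains, and the level of the gene, given above, overlapped between groups.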

How the data were processed

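Paired-end reads of 12 LD libraries, 1 per pig, were trimmed with Trim Galore, mapped to Sscrofa11.1 with TopHat2 2.1.0 using the Ensembl annotation, and turned into transcripts with Cufflinks 2.2.1, each library by itself, by the authors. The deposited files hold, in a text column, 2 other kinds of value per transcript: FPKM, relative to all mapped fragments of a library, and coverage, the mean read depth. Counts of reads are not held in them, so depth enters only as coverage.

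Transcripts were matched between libraries by sequence name, strand and intron chain, and single-exon ones by overlap. Scaffold names were matched to RefSeq scaffolds (Sscrofa11.1) by splice site bases, requiring at least 3 introns, 80% of them standard, and 3 times the runner-up. Transcripts were assigned to the RefSeq gene with most shared exonic bases, and FPKM were added up per gene and scaled by median ratios (factors 0.892 to 1.14). Genes averaging 0.5 FPKM or more in a group, and distinct transcripts listed in at least 6 libraries, entered tests on log2(FPKM + 0.5) in limma 3.58.1 (R 4.3.3), two-sided, with a variance trend and Benjamini-Hochberg adjustment over chromosomes and scaffolds together, threshold 0.1. On this scale the change of low genes is understated. Library values were compared by exact permutation. Near copies were found with minimap2 2.31. On simulated data with 20653 transcripts the fit found 34 of 100 that were given a log2FC of 1.2 and 57 of 100 given 2, beside 9 false calls. With 12578 genes it found 73 and 98 of 100, beside 19 false calls.

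Named were all calls, the 10 highest genes, the 8 genes and 4 transcripts of smallest p, the 5 transcripts of most coverage, the 5 scaffolds with most transcripts, up to 4 members of each gene list and the markers. Others (transcripts 264 and 548, copies, intronic hosts, the locus sum, AKAP17A) were chosen after their values were seen. The members and lists were chosen with earlier results of these data known. Replicates are separate pigs. Same-numbered H and L libraries did not deviate together (correlations of -0.077 to 0.061 over 12578 genes), so numbers do not pair pigs. Transcripts under 200 bases were kept in the main results.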

Additional observations from a re-analysis of the deposited data

Results flagged for a closer look

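In 10 of 82 groups of 6 libraries examined, 1 library stood apart from its group by Dixon's gap test at the 95% level, which by chance marks about 1 in 20 groups. L3 was the highest of the L group for HSP90AA1, at 1346 FPKM against 449 FPKM for the next library, for its main transcript, at 1333 FPKM, and for EIF5, at 193 FPKM. H6 was the highest of the H group for EIF5, at 120 FPKM, and for NOTCH1, at 6.30 FPKM, where the next library was at 3.01 FPKM. L5 was the highest of the L group for NOTCH1, at 2.51 FPKM, and L2 for EDF1, at 92.1 FPKM. LOC100518848, the near copy of RPS21, was listed at 0 in L5 and at 7.93 to 12.05 FPKM in the other L libraries. The second MTA1 intronic transcript was at 5.73 FPKM in L4 and listed at 0 in the other L libraries. The transcript of AEMK02000141.1 was at 71929 scaled FPKM in H2, with 25186 in the next H library.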

How the results depend on the processing

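The replicate numbers do not pair the pigs. With a replicate block the differences (H minus L) of 86.3 transcripts and of 63.2 single-exon transcripts per library stayed, but their adjusted p rose to 0.28 by an exact sign-change test. In the blocked limma fits 1 scaffold transcript and 0 scaffold genes were called, as without the block, while calls over all transcripts fell from 42 to 2 and over all genes from 1 to 0. Of the results on scaffolds the block changed no other call. Among transcripts found in at least 2 libraries the differences were 52.5 and 46.2 and no longer passed. Per gigabase of coverage that of all scaffold transcripts was 8.01 and did not pass (adjusted p = 0.12), while that of single-exon ones was 5.53 and passed (0.069). Without H4 and L3, chosen after seeing the data, they were 52.6 and 38.4 and did not pass. With only transcripts of at least 0.5 FPKM the difference in spliced transcripts was 15.8 and passed (adjusted p = 0.091), and those of all and of single-exon ones were 41.0 and 25.2 and passed (0.032 each). Leaving out each library in turn gave 62.3 to 104 for all scaffold transcripts, 47.4 to 73.6 for single-exon and 14.9 to 30.7 for spliced ones, with adjusted p of 0.026 to 0.19, 0.026 to 0.19 and 0.030 to 0.42. It gave 0.0337 to 0.101 points for the share of transcripts, which passed only without H2 (adjusted p = 0.032), as spliced transcripts did (0.030). The share of coverage turned to -0.0487 points without the AEMK02000141.1 transcript, also chosen after seeing the data.

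The share of single-exon transcripts, scaffolds minus chromosomes, was 0.568 to 1.07 points when 1 library was left out, and passed only without L1 (adjusted p = 0.017). It was 7.94 points without the 2 scaffolds with most transcripts, an alternative added after seeing the data. GC content, length and depth kept their direction and passed in all alternatives, with GC differences of 3.42 to 12.8 points. Near copies of at least 98% identity made up 3.68% of distinct scaffold transcripts. The count of called scaffold transcripts was 1, except 0 among transcripts found in all 12 libraries, which leaves the MTA1 transcript out, and 2 without L4, the L library that alone listed the second MTA1 transcript, and leaving out each library gave 1 to 2. That transcript entered most of these fits through its H values alone, so they say little on how stable its call is. For scaffold genes the count stayed at 0 in every alternative. The matching by overlap of at least 50% gave 2081 distinct scaffold transcripts. FPKM carry no counting error, 31 scaffolds with 96 distinct transcripts could not be matched, and levels of near copies and of immunoglobulin genes are uncertain.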
